A study of Mus musculus with 9 samples.

Results

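The genes described here encode the constitutive proteasome, the protease that breaks down most tagged protein in the cell. They are the 36 genes of the table, out of 22527 symbols, whose symbol is Psma, Psmb, Psmc or Psmd followed only by digits, after the immunoproteasome genes Psmb8, Psmb9 and Psmb10 are set aside. The rule uses names only and no measured value. It takes 8 genes of the alpha ring, 8 of the beta ring, 6 ATPases of the base, 11 other subunits of the regulatory particle and 3 chaperones (Psmd5, Psmd9 and Psmd10) that help to assemble that particle and leave it. Of the 36, 34 reached 1 FPKM in at least 3 libraries and were tested. FPKM divides a gene's fragments by transcript length and by the mapped reads of the library.

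The proteasome is a barrel with a cap. The core barrel stacks rings of alpha subunits, which form the gate, on rings of beta subunits, 3 of which (Psmb5, Psmb6 and Psmb7) cut peptide bonds. The regulatory particle binds ubiquitin-tagged proteins, removes the tag with Psmd14, and threads the chain into the barrel with the ring of Psmc ATPases. Transcription of subunit genes is known to be raised together by the factor NRF1 (gene Nfe2l1) when protease activity falls short, and brown adipocytes are known to need NRF1 during adaptation to cold.

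The libraries hold ribosome-bound RNA, pulled down with an antibody to GFP, from fat of C57BL/6 mice aged 8 weeks that the labels list as wild type. There were 3 groups of 3 libraries, from brown fat (BAT), from inguinal white fat, a depot under the skin (iWAT), and from epididymal white fat, a depot in the abdomen (eWAT). No treatment is given, and all groups share the genotype, strain and age. The labels do not say which cells carried the GFP tag or whether replicates came from separate animals, so p-values reflect only how far these samples spread, which may be technical. The deposited table is named for adiponectin, a hormone made by fat cells, and for TRAP, the purification of translating ribosomes through a tagged ribosomal protein.

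Read totals are not in the table. The value of a single read in low genes gave estimates of 11.1 to 21.1 M reads for BAT, 2.92 to 4.65 M for iWAT, and 16.2, 4.46 and 4.61 M for eWAT 1, 2 and 3, so that depth and depot go together except in eWAT 1. In iWAT 1, 29 of the 34 tested members (and 75.1% of all genes tested) lay nearer to the eWAT mean than to that of iWAT 2 and 3 on the log2 scale, so results are also given without it. A single field of the library titled BAT 3 names inguinal fat, yet the brown fat uncoupling protein Ucp1 stood at 3054 FPKM there, and it was kept in BAT. Summed FPKM of 8 brown adipocyte markers was 24128 to 27120 in BAT, 224 to 536 in iWAT and 56.3 to 80.6 in eWAT, and 5 white adipocyte markers summed to 98.8 to 259.7, 1901 to 5727 and 6543 to 10296. The sum over 8 skeletal muscle markers was 60.6 to 149.7 in BAT, 1816 to 2508 in iWAT, and 227 (eWAT 1) to 1300.1 in eWAT. Over 6 epithelium and skin markers it was 23.2 to 48.2, 160.1 to 436 and 62.4 (eWAT 1) to 215, with Krt18 at 0 in BAT and iWAT and Epcam at 0 in BAT. Sums for macrophages, endothelium, T and NK cells and B cells were at most 10.2, 3.61, 1.02 and 2.39 FPKM. In such bulk samples fewer cells of a type and less RNA per cell cannot be told apart.

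Ribosome-bound transcripts of the proteasome were abundant in each depot. The tested members had a median level of 109 FPKM over the 9 libraries, against 6.68 for all genes tested, and the median member stood at percentile 92.4. On this per-length scale the beta ring was highest, with a median member of 213 FPKM and a range from Psmb1 at 163 to Psmb4 at 266. The alpha ring followed at 144 FPKM, from Psma2 at 119 to Psma6 at 173. Non-ATPase subunits of the regulatory particle had a median of 66.0 FPKM, from Psmd1 at 24.7 to Psmd4 at 152, and the ATPases 58.8, from Psmc2 at 39.4 to Psmc1 at 151. The chaperones were lowest, with Psmd5 at 6.97 FPKM, Psmd9 at 10.7 and Psmd10 at 22.7. The highest member stood 1.45 times above the lowest in the alpha ring and 3.84 times among the ATPases, although the members of a ring enter the particle in equal number.

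Summed over all 36 genes, BAT had a level of 3932 ± 119.9 FPKM, iWAT one of 3607 ± 142 and eWAT one of 3907 ± 137 (SD, n = 3). The alpha ring summed to 1125 ± 52.9 in BAT, 880.0 ± 46.3 in iWAT and 1004 ± 49.9 FPKM in eWAT, and the beta ring to 1586 ± 45.7, 1400 ± 125 and 1571 ± 6.60. The ATPases summed to 416 ± 19.4, 464 ± 4.91 and 488 ± 27.6 FPKM, lowest in BAT. That order rests on Psmc1, since the other 5 ATPases summed to 321 ± 19.4, 269.5 ± 27.3 and 323 ± 10.4 FPKM, lowest in iWAT like both rings. The 11 Psmd subunits stood at 764 ± 26.9, 821 ± 34.7 and 805 ± 67.9. As a share of all FPKM in a library, the 36 genes held 0.556% to 0.592% in BAT, 0.678% to 0.766% in iWAT and 0.664% to 0.735% in eWAT. BAT was thus lowest by share, though not by summed level. All FPKM of a library came to 672506 to 683879 in BAT, 473426 to 542144 in iWAT and 545307 to 564830 in eWAT. The orders of summed levels above hold for FPKM as deposited. Members varied less among replicates than genes in general, with a median coefficient of variation of 6.79% in BAT, 18.6% in iWAT and 9.25% in eWAT against 15.5%, 39.1% and 24.8% for all genes tested, most of which are of lower level.

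**Figure D1:**
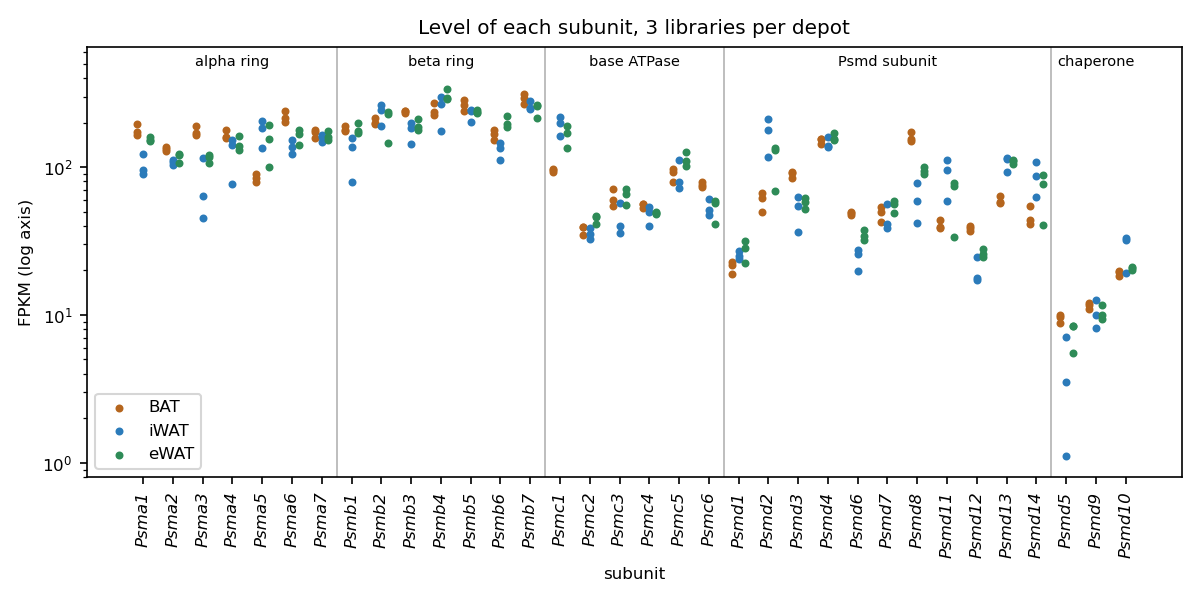
FPKM of the 34 tested proteasome genes on a log axis, with 1 point per library, 3 libraries per depot and genes ordered by place in the particle. Beta ring genes lie at the top, around a median of 213 FPKM, and the chaperones at the bottom, with Psmd5 reaching down to 1.11 FPKM in iWAT 2.

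Not all of the named genes are constitutive. Psma8, the alpha subunit known from testis, was listed at 0 in BAT 1, BAT 2 and all 3 iWAT libraries, at 0.190 FPKM in BAT 3, and at 0.193, 0.313 and 0.157 in eWAT. Psmb11, the catalytic subunit known from thymus, was at 0.192, 0.166 and 0.129 FPKM in BAT, 0.693, 0.113 and 0.931 in iWAT, and 0.151, 0.772 and 0.827 in eWAT. Both fell under the filter and were not tested, and a listed 0 can be a failed estimate.

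RefSeq promoters (build GRCm38.p6, 250 bases before to 50 after the start) were found for 29 of the 36 genes, in 31 promoters. They were searched for TGACNNNGC, the core of the antioxidant response element at which NRF1 and NRF2 are known to bind, and for CCAAT, both on both strands. The first was present in 5 of the 29 genes (17.2%) and in 14.0% of all genes with a promoter, and the second in 12 (41.4%) and in 41.1% of all genes. The windows around the 5 matches to the core, 1 each, are shown because they are the only ones among these promoters, and 2 of them belong to the catalytic subunits Psmb5 and Psmb6. Each is written 5′ to 3′ on the gene's strand with the match in capitals.
Psmb5 (chr14:54618009-54618067, minus strand): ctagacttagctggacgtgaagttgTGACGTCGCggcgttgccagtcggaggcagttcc
Psmb6 (chr11:70525323-70525356, plus strand): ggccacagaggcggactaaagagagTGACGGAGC
Psmd9 (chr5:123228134-123228189, plus strand): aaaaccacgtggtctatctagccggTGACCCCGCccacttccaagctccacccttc
Psmc6 (chr14:45329574-45329630, plus strand): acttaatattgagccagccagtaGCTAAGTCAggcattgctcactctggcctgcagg
Psmd12 (chr11:107479278-107479314, plus strand): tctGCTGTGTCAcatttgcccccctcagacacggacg
The match began 47 bases before the start in Psmb5, 9 in Psmb6, 31 in Psmd9, 227 in Psmc6 and 247 in Psmd12. In Psmc6 and Psmd12 it lay on the opposite strand. A match is a run of letters and not a measured binding site. Of these 5 genes, Psmd12 was called between BAT and iWAT, and the other 4 were not called between any depots with all libraries in the fit.

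BAT was compared with iWAT first, a thermogenic depot with a subcutaneous white one. The proteasome genes did not move as a block: 8 of 34 were higher in BAT, 6 were lower and 20 were not called (limma, Benjamini-Hochberg adjusted p under 0.05). The largest rise was that of Psmd8, at 1.44 log2 units on the log2(FPKM + 1) scale, and the largest fall that of Psmd2, at -1.46. The 41.2% of members called lay under the background, in which 57.5% of all genes tested were called, 34.5% higher and 22.9% lower. The 3 BAT and 3 iWAT libraries did not overlap in 21 members, 14 higher and 7 lower in BAT, against 65.7% of all genes (38.5% higher, 27.2% lower). The members' median difference was 0.19 and that of all genes 0.23, while the median size of the difference was 0.48 against 0.88. By place in the particle, 3 of 7 alpha subunits were higher and 1 lower, none of 7 beta subunits was called (1 at an unadjusted p under 0.05), 1 of 6 ATPases was lower, 4 of 11 Psmd subunits were higher and 4 lower, and 1 of 3 chaperones was higher. Neither the beta ring nor any other sub-complex was tested against the rest.

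With estimated depth as a covariate, an alternative chosen after the data were seen, no member was called (limma), with 6 of 34 at an unadjusted p under 0.05, and the share called fell from 57.5% to 13.4% over all genes. Some differences kept about their size in that fit, such as those of Psma1 (0.80 and 0.69 with the covariate), Psma6 (0.67 and 0.90), Psmd8 (1.44 and 1.20) and Psmd13 (-0.83 and -0.88). Others shrank, that of Psma5 from -1.02 to -0.16 and that of Psmd2 from -1.46 to -0.34. The sign of the members' median depended on the scaling, at -0.04 with median ratios and -0.23 with quantile normalization. The latter, which moves the median of all genes from 0.23 to 0.06, gave 5 members higher and 12 lower, and without iWAT 1 there were 12 higher and 7 lower, with 66.0% of all genes called.

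**Figure D2:**
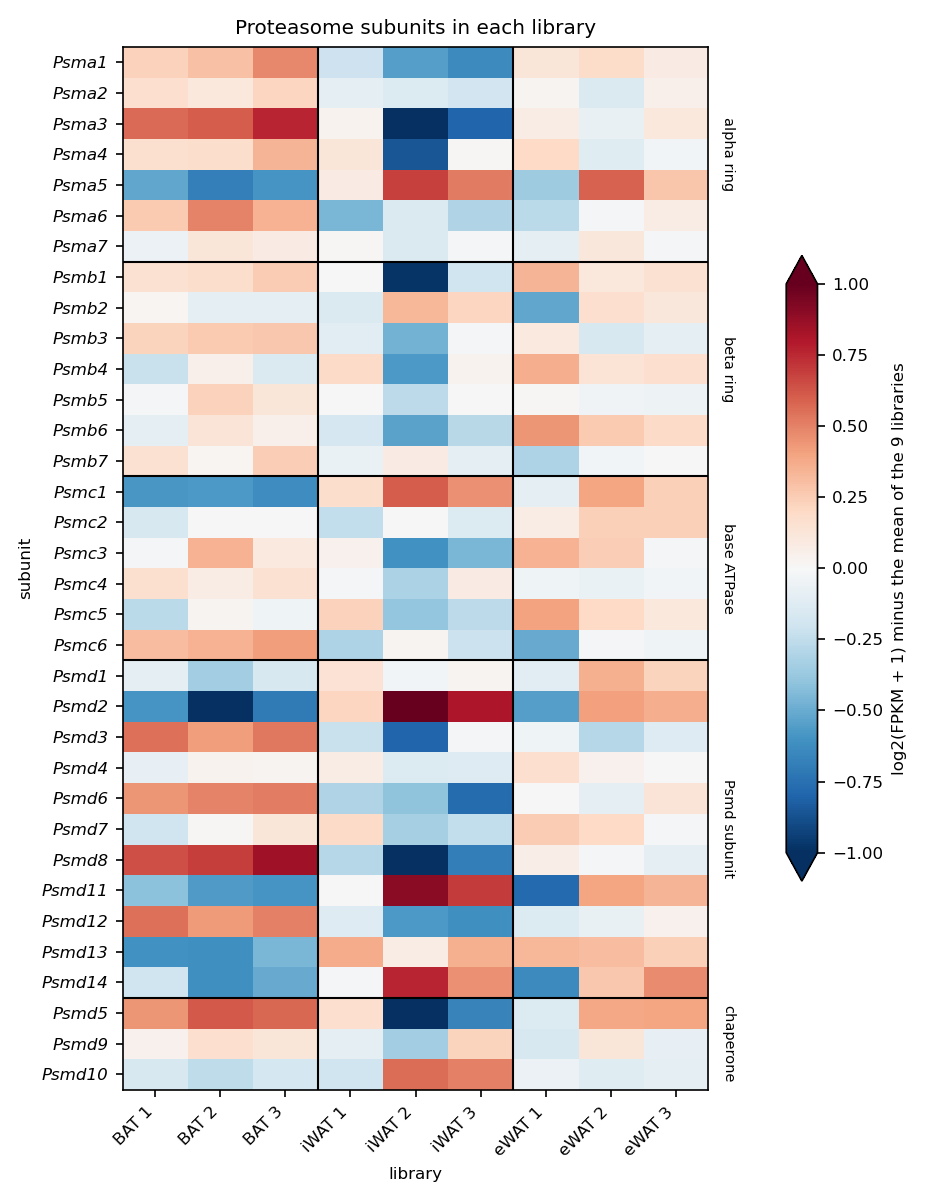
Each of the 34 tested genes (rows, in 5 blocks by place in the particle) in each of the 9 libraries (columns), as log2(FPKM + 1) minus the gene's mean over the libraries, red above it and blue below. Psmd8, Psma3 and Psmd12 are red in the 3 BAT libraries, Psmd2, Psmc1 and Psmd13 blue, and iWAT 2 holds the strongest colours.

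**Figure D3:**
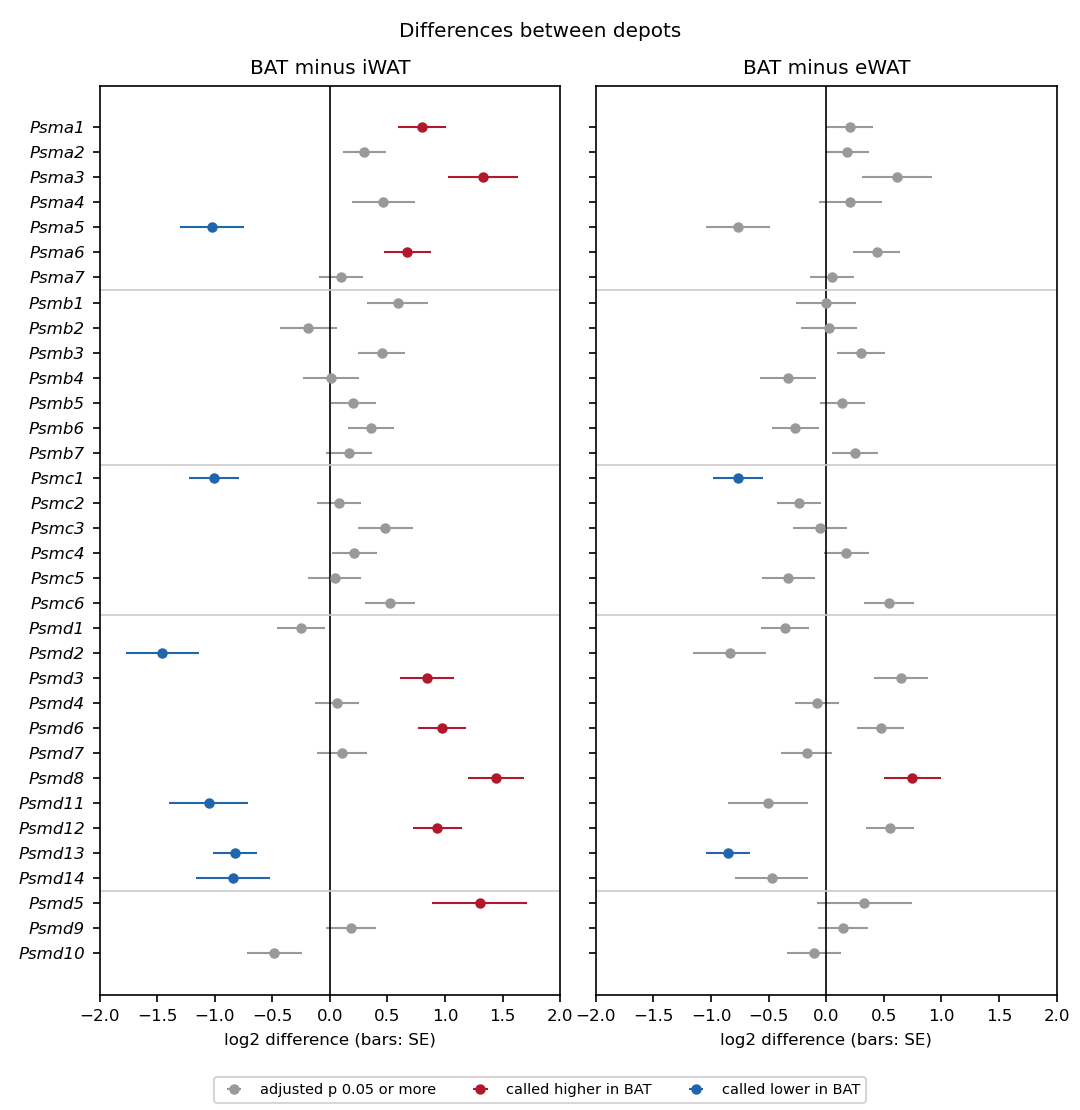
Log2 difference of each tested gene, BAT minus iWAT on the left and BAT minus eWAT on the right, with bars of 1 SE from the fit over all genes and colour for calls at an adjusted p under 0.05. Left, 8 genes are called higher and 6 lower, and right, 1 higher and 2 lower. No beta ring gene is coloured in either.

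Alpha subunits form the outer rings and the gate of the core. Psma3 (alpha7, chromosome 12, 72075608 to 72097334, protein-coding, build mm9) was at 166, 171 and 191 FPKM in BAT, 115, 45.4 and 64.1 in iWAT, and 118, 106 and 120.4 in eWAT. BAT held the 3 highest values, the lowest of the 9 were iWAT 2 and iWAT 3, and iWAT 1 lay within the eWAT range. The difference from iWAT was 1.33 (SE 0.30, limma adjusted p = 0.00465). Psma1 (alpha6) was at 165, 172 and 197 FPKM in BAT, 122, 95.5 and 89.9 in iWAT, and 153, 159.9 and 149 in eWAT, so that all 3 iWAT libraries lay under the other 6, with a difference of 0.80 (SE 0.21, limma adjusted p = 0.00803). Psma6 (alpha1) was at 203, 239 and 215 FPKM in BAT, 123, 153 and 137 in iWAT, and 140.3, 168 and 178 in eWAT. BAT was above each of the 6 white libraries for this gene too, with 0.67 (SE 0.20, limma adjusted p = 0.0177). The call of Psma6 was lost without BAT 2 (adjusted p = 0.075), without BAT 3 (0.0553), with median-ratio scaling (0.124) and with quantile normalization. Over its alternatives the adjusted p ran from 0.015 to 0.76 and the difference from 0.08 to 0.90. The call of Psma1 was lost with quantile normalization (adjusted p = 0.195), in a range of 0.00113 to 0.24.

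Psma5 (alpha5, chromosome 3, 108059844 to 108082892, protein-coding, build mm9) moved against the other called alpha subunits. It was at 89.2, 79.3 and 85.0 FPKM in BAT, 136, 206 and 184 in iWAT, and 99.8, 193 and 156 in eWAT. BAT held the lowest 3 values, eWAT 1 came next at 99.8, and the other 5 white libraries lay between 136 and 206. The difference from iWAT was -1.02 (SE 0.28, limma adjusted p = 0.00999). Psma2 (104 to 137 FPKM over the 9 libraries), Psma4 (77.4 to 178) and Psma7 (148 to 177) were not called, with differences of 0.30, 0.47 and 0.10.

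The beta ring holds the active sites. Psmb5 carries the chymotrypsin-like activity and was at 240.3, 285 and 263 FPKM in BAT, 241, 201 and 243 in iWAT, and 244, 236 and 234 in eWAT. Apart from iWAT 2 at 201, its values lay between 234 and 285, and the groups overlapped. Psmb6, with the caspase-like site, was at 154, 178 and 169 FPKM in BAT, 145, 112 and 135 in iWAT, and 221, 195 and 187 in eWAT, and the 3 depots did not overlap, in the order iWAT, BAT, eWAT from low to high. Psmb7, with the trypsin-like site, was at 293, 268 and 313 FPKM in BAT, 252, 279 and 246 in iWAT, and 214, 259 and 265 in eWAT, with BAT above eWAT and iWAT overlapping both. Differences of BAT from iWAT were 0.20 (SE 0.20, limma adjusted p = 0.387) for Psmb5, 0.36 (SE 0.20, adjusted p = 0.151) for Psmb6 and 0.17 (SE 0.20, adjusted p = 0.483) for Psmb7. The structural beta subunits were not called either, from -0.19 for Psmb2 to 0.59 for Psmb1, which had the smallest adjusted p of the ring (0.0775). For none of the 7 does the missing call show equal levels.

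Of the 6 ATPases that unfold substrates, Psmc1 (Rpt2, chromosome 12, 101348396 to 101361574, protein-coding, build mm9) was the 1 called. It was at 96.0, 96.8 and 93.4 FPKM in BAT, 163, 220.0 and 199 in iWAT, and 135, 189.7 and 170.2 in eWAT. Its BAT values lay close together and under each white library, of which eWAT 1 at 135 was the lowest. The difference from iWAT was -1.01 (SE 0.22, limma adjusted p = 0.00344). Psmc6 (Rpt4) went the other way at 0.52 (adjusted p = 0.0586), with 73.8 to 79.6 FPKM in BAT, 47.8 to 60.4 in iWAT and 41.5 to 58.6 in eWAT. Psmc2, Psmc3, Psmc4 and Psmc5 differed by 0.08, 0.48, 0.21 and 0.04 and were not called. Psmc3 overlaps Slc39a13 on the opposite strand over 4579 bases of mm9, and since no strand setting is given its reads may be shared.

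In the regulatory particle, 4 lid subunits were higher in BAT than in iWAT. Psmd8 (Rpn12, chromosome 7, 29959207 to 29965692, protein-coding, build mm9), a lid subunit, was at 150.2, 155 and 173 FPKM in BAT, 78.5, 42.1 and 58.8 in iWAT, and 100.0, 94.3 and 89.5 in eWAT. The 3 depots did not overlap at all, in the order BAT, eWAT, iWAT, and the mean of 159.6 ± 12.1 FPKM in BAT against 59.8 ± 18.2 in the iWAT group (SD, n = 3) gave a difference of 1.44 (SE 0.24, limma adjusted p = 0.000948). Psmd6 (Rpn7, chromosome 14, 14944698 to 14953498, protein-coding, build mm9), also of the lid, was at 47.1, 49.0 and 49.5 FPKM in BAT, 27.7, 25.8 and 19.8 in iWAT, and 34.4, 32.0 and 37.8 in eWAT and followed the same order without overlap, with 0.97 (SE 0.21, limma adjusted p = 0.00308). Psmd12 (Rpn5), which links lid to base, was at 40.3, 36.7 and 38.9 FPKM in BAT, 24.7, 17.9 and 17.4 in iWAT, and 24.5, 25.7 and 28.0 in eWAT. BAT was above all white libraries, and iWAT 1 lay just above the lowest eWAT value, with a difference of 0.93 (SE 0.21, limma adjusted p = 0.00415). The lid subunit Psmd3 (Rpn3) averaged 89.99 ± 4.39 FPKM over the BAT libraries, 51.0 ± 13.4 over iWAT and 57.1 ± 4.80 over eWAT (SD, n = 3). Its difference from iWAT was 0.84 (SE 0.24, limma adjusted p = 0.012), and its call was lost with quantile normalization (adjusted p = 0.132, range over alternatives 0.00772 to 0.261).

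The other 4 called Psmd subunits were lower in BAT. Psmd2 (Rpn1, chromosome 16, 20651725 to 20663487, protein-coding, build mm9), the base scaffold at which ubiquitin receptors dock, was at 67.1, 50.0 and 61.7 FPKM in BAT, 118, 210.5 and 178 in iWAT, and 68.7, 135 and 131 in eWAT. BAT lay under every white library, but eWAT 1 at 68.7 was close to BAT 1 at 67.1, while iWAT 2 and iWAT 3 were highest. The difference from iWAT was -1.46 (SE 0.32, limma adjusted p = 0.00359). Psmd13 (Rpn9, chromosome 7, 148067867 to 148084542, protein-coding, build mm9), a lid subunit, was at 57.9, 57.6 and 64.2 FPKM in BAT, 115, 93.3 and 114 in iWAT, and 112, 110.1 and 105 in eWAT. The lowest white value, 93.3, was well above the highest BAT value, and eWAT 1 was among the highest, with a difference from iWAT of -0.83 (SE 0.19, limma adjusted p = 0.00517). Psmd13 overlaps Sirt3 by 342 bases on the opposite strand.

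Psmd11 (Rpn6), a lid scaffold, was at 44.1, 39.5 and 38.8 FPKM in BAT, 58.9, 111 and 96.0 in iWAT, and 33.9, 77.9 and 74.7 in eWAT. Its lowest value of all was eWAT 1 at 33.9, under the 3 BAT libraries, and the other 5 white libraries lay between 58.9 and 111. The difference from iWAT was -1.05 (SE 0.34, limma adjusted p = 0.024). Psmd14 (Rpn11), the deubiquitinase that frees substrates of their tag, was at 54.8, 41.1 and 44.2 FPKM in BAT, 62.8, 108 and 87.3 in iWAT, and 40.4, 76.5 and 88.0 in eWAT, again with eWAT 1 the lowest of the 9, and differed by -0.84 (SE 0.32, limma adjusted p = 0.0433). Both calls were fragile. That of Psmd11 was lost without BAT 2 (adjusted p = 0.0669), BAT 3 (0.0687), iWAT 2 (0.0786) or iWAT 3 (0.0744), and its adjusted p over all alternatives ran from 0.00665 to 0.822. That of Psmd14 was lost without BAT 1 (0.0586), BAT 2 (0.126), BAT 3 (0.109), iWAT 2 (0.128), iWAT 3 (0.102) or eWAT 2 (0.0539), in a range of 0.0103 to 0.671. With estimated depth as a covariate both differences turned above 0, to 0.18 for Psmd11 and 0.29 for Psmd14.

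**Figure D4:**
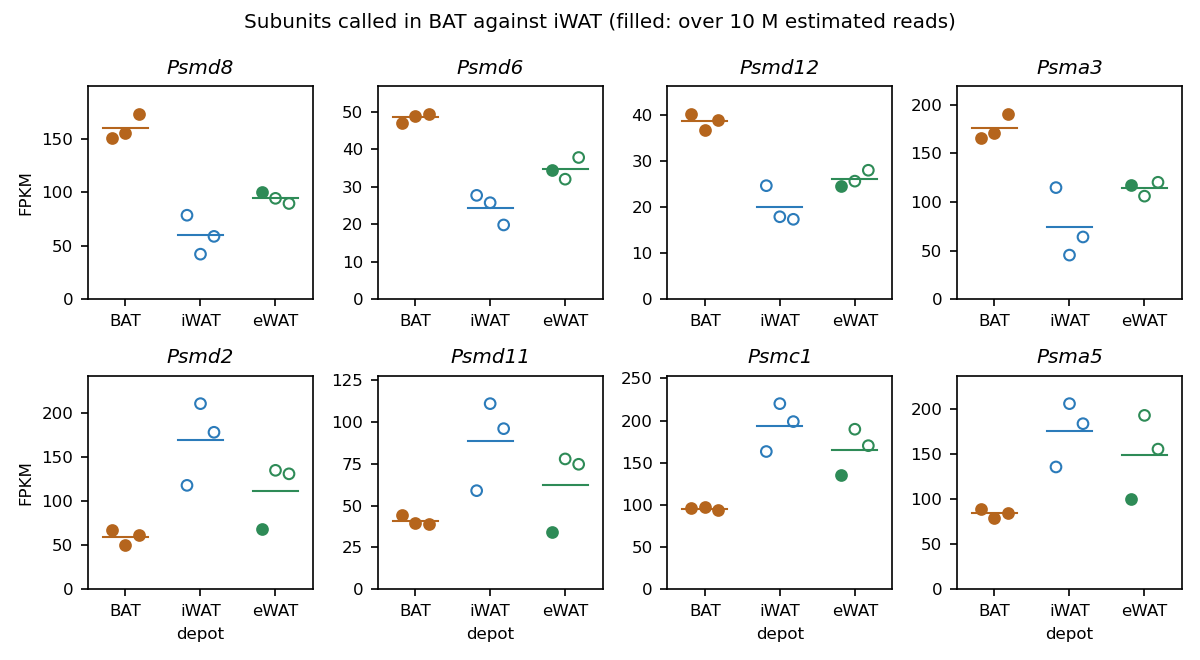
FPKM per library, with a line at each depot's mean, for 4 genes called higher in BAT than in iWAT (Psmd8, Psmd6, Psmd12, Psma3) and 4 called lower (Psmd2, Psmd11, Psmc1, Psma5). Filled points are libraries over 10 M estimated reads, the 3 BAT libraries and eWAT 1. For Psmd2, Psmd11, Psmc1 and Psma5 the filled eWAT 1 point lies under the open eWAT points.

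Psmd4 (Rpn10), a ubiquitin receptor, was at 143, 155 and 154 FPKM in BAT, 159, 137 and 138 in iWAT, and 169.9, 156 and 152 in eWAT. All 9 values lay between 137 and 169.9, the groups overlapped, and the difference of BAT from iWAT was 0.06 (SE 0.19, limma adjusted p = 0.8). Psmd1 (Rpn2, 18.95 to 31.6 FPKM) and Psmd7 (Rpn8, the partner of Psmd14, 38.9 to 58.8 FPKM) were not called, at -0.25 and 0.11.

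The chaperones hold parts of the base together before the particle is complete. Psmd5 was at 8.77, 10.0 and 9.73 FPKM in BAT, 7.11, 1.11 and 3.54 in iWAT, and 5.54, 8.41 and 8.46 in eWAT. Its iWAT values were spread most of all members, with a coefficient of variation of 77.0%, and each lay under the BAT values. The difference from iWAT was 1.30 (SE 0.41, limma adjusted p = 0.0208). Its call was lost without BAT 2 (adjusted p = 0.0602), BAT 3 (0.0567) or iWAT 2 (0.0512), in a range over all alternatives of 0.00154 to 0.239. Psmd9 was at 11.0, 12.1 and 11.7 FPKM in BAT, 9.96, 8.14 and 12.6 in iWAT, and 9.46, 11.7 and 10.0 in eWAT, and its depots overlapped. Psmd10, also called gankyrin, was at 19.7, 18.5 and 19.5 FPKM in BAT, 19.1, 33.1 and 31.9 in iWAT, and 21.2, 20.2 and 20.8 in eWAT, where iWAT 2 and iWAT 3 stood above the other 7 libraries. Neither was called against iWAT, at 0.18 and -0.48.

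Intronless copies of the transcript elsewhere in the mm9 genome, at 85% identity or more over at least 500 bases, were found for 11 of the 34 tested members, among them Psma5 (3 copies, the closest 98.6% identical), Psmd11 (1, 98.1%), Psmc1 (2, 94.6%), Psmd2 (1, 93.8%) and Psma3 (1, 91.2%). Thus 4 of the 6 members lower in BAT and 1 of the 8 higher had such a copy, beside 7.78% and 10.0% of all genes so called that had a transcript to search. Reads can be split between a gene and its copies, which leaves the levels of these 11 uncertain, those of Psmb5 (1 copy, 99.0%) and Psmb6 (2, 92.2%) included. Over all genes, 20.5% of the 878 with a copy were lower in BAT and 39.7% higher, against 23.4% and 34.3% of the 9119 without.

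Library depth ran alongside these calls. In eWAT 1, the white library as deep as BAT, 5 of the 6 members lower in BAT than in iWAT had their lowest value of the 6 white libraries (74.6% of all genes so called), all but Psmd13. None of the 8 members higher in BAT did (7.45% of all genes so called). Krt5, a keratin of skin, was at 19.9, 10.3 and 15.8 FPKM in BAT, 68.3, 188 and 127 in iWAT, and 29.3, 87.3 and 79.7 in eWAT, also lowest in eWAT 1 among the white libraries. The covariate above cannot tell depth apart from depot, nor from muscle and skin markers, whose sums were also lowest in eWAT 1 among the eWAT libraries. The part of depth, and of skin or muscle RNA, in the calls was not tested. Of 6 genes that mark fat cells of any depot, 3 were higher in BAT against iWAT (Plin1, Pparg and Cd36) and none was lower (limma), beside 34.5% and 22.9% of all genes. Against eWAT none was higher and 2 were lower (Adipoq and Fabp4), beside 20.2% and 13.5% of all genes. Plin1, which coats lipid droplets, averaged 429 ± 27.2 FPKM over the BAT libraries, 165 ± 119 over iWAT and 403 ± 91.2 over eWAT (SD, n = 3). Pparg, Cd36 and Lpl also had their lowest mean in iWAT, whereas Adipoq, the adiponectin gene, at 944 ± 169, 1132 ± 912 and 2499 ± 568 FPKM, and Fabp4 were lowest in BAT by their means.

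BAT was then compared with eWAT, using the same BAT libraries, so the results of the 2 comparisons are not independent. Only 3 of 34 members were called (8.82%, limma), against 33.7% of all genes tested (20.2% higher, 13.5% lower), and 9 had an unadjusted p under 0.05. Psmd8 was higher in BAT, at 159.6 ± 12.1 against 94.6 ± 5.27 FPKM (SD, n = 3), a difference of 0.75 (SE 0.24, limma adjusted p = 0.0381). Psmd13 was lower, at 59.9 ± 3.76 against 109 ± 3.68 FPKM, with -0.85 (SE 0.19, limma adjusted p = 0.00692). Psmc1 was lower, at 95.4 ± 1.78 against 165 ± 27.8 FPKM, with -0.77 (SE 0.22, limma adjusted p = 0.0202). No alpha subunit, beta subunit or chaperone was called (1 alpha subunit and 0 of the others at an unadjusted p under 0.05). The groups did not overlap in 22 members, 13 higher and 9 lower in BAT, against 54.6% of all genes (32.0% higher, 22.7% lower). The members' median difference was 0.04 (all genes -0.02) and its median size 0.32 (all genes 0.61), and quantile normalization turned the former to -0.24.

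Beside their differences from iWAT, those from eWAT for the other members called there were 0.20 for Psma1, 0.61 for Psma3, 0.44 for Psma6, 0.65 for Psmd3, 0.47 for Psmd6, 0.55 for Psmd12 and 0.33 for Psmd5. For Psma5, Psmd2, Psmd11 and Psmd14 they were -0.77, -0.84, -0.51 and -0.48. Their adjusted p (limma) ran from 0.054 (Psma5) to 0.552 (Psmd5). The catalytic subunits differed from eWAT by 0.14 (Psmb5), -0.27 (Psmb6) and 0.25 (Psmb7), with adjusted p of 0.6, 0.32 and 0.348.

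These counts moved with single libraries, and with quantile normalization none was higher and 6 were lower. Psmd13 kept its call in all alternatives but the 2-fold minimum, with an adjusted p of 0.00132 to 0.037. The call of Psmd8 was lost when any 1 of BAT 1 (adjusted p = 0.0846), BAT 2 (0.098), BAT 3 (0.128), iWAT 3 (0.0541), eWAT 2 (0.101) or eWAT 3 (0.115) was left out, in a range of 0.00294 to 0.183. That of Psmc1 was lost without BAT 1 (0.0667), BAT 2 (0.0651), BAT 3 (0.0748), eWAT 2 (0.0913) or eWAT 3 (0.0713), in a range of 0.0056 to 0.154. Without eWAT 1, Psma5, Psmd2, Psmd11 and Psmd14 were called lower as well, which made 6 lower beside Psmd8, with 40.1% of all genes called. Without iWAT 1, which is in neither group but in the shared estimate of the spread, 6 were higher and 4 lower (42.8% of all genes called), and without iWAT 2 there were 4 and 3 (38.3%). Among the deep libraries alone, BAT 1 to 3 were set against eWAT 1, a single library that was assumed to vary as BAT does, so this fit compares BAT with that library and not with the depot. In it 9 members were higher, led by Psmc6 at 0.86, Psmd5 at 0.68 and Psmd8 at 0.67, and 2 were lower, Psmd13 at -0.89 and Psmc1 at -0.50, with 35.9% of all genes called. The differences of Psmd2, Psmd11, Psmd14 and Psma5 from eWAT 1 were -0.21, 0.26, 0.19 and -0.24.

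Between the white depots, iWAT and eWAT, no member was called (limma), and 8 of 34 had an unadjusted p under 0.05. Over all genes 1.74% were called (0.231% higher, 1.5% lower). The difference was below 0 in 25 of 34 members and in 60.8% of all genes, with medians of -0.14 and -0.18. This direction followed the scaling: median ratios moved the median of all genes to -0.0018 and that of the members to 0.10, with 14 of 34 below 0. In 6 members, Psma1, Psmb1, Psmb6, Psmc2, Psmd6 and Psmd8, the groups did not overlap, all lower in iWAT (background 22.7%, 3.1% higher and 19.5% lower). The smallest adjusted p was that of Psmb6, at 131 ± 16.9 against 201 ± 18.01 FPKM (SD, n = 3), with -0.62 (SE 0.20, limma adjusted p = 0.111). These counts depended on iWAT 1, and without it, 10 members were lower in iWAT (Psma1, Psma3, Psmb1, Psmb6, Psmc3, Psmc5, Psmd5, Psmd6, Psmd8 and Psmd12) and Psmd10 was higher, with 32.0% of all genes then called.

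The catalytic subunits have counterparts that replace them in the immunoproteasome, a form known from immune cells and after interferon. Psmb8, which takes the place of Psmb5, was at 15.6, 53.7 and 14.2 FPKM in BAT, 69.5, 40.3 and 55.6 in iWAT, and 32.5, 36.4 and 22.3 in eWAT. Psmb9, in place of Psmb6, was at 16.9, 51.3 and 16.2 FPKM in BAT, 98.2, 62.2 and 63.3 in iWAT, and 49.4, 58.5 and 39.3 in eWAT, and Psmb10, in place of Psmb7, at 25.9, 46.7 and 27.9 FPKM in BAT, 60.1, 29.3 and 46.1 in iWAT, and 54.7, 49.6 and 41.3 in eWAT. In BAT 2 each was higher than in BAT 1 and BAT 3, and for Psmb8 and Psmb10 the BAT 2 value lay within the iWAT range. BAT was lower than iWAT for Psmb9 at -1.55 (SE 0.41, limma adjusted p = 0.00914) on the log2 scale, and for Psmb8 at -1.19 (SE 0.45, limma adjusted p = 0.0437). Psmb10 was not called, at -0.41 (adjusted p = 0.275). The call of Psmb8 was lost when any library but BAT 2 or iWAT 2 was left out, at adjusted p from 0.0503 (without eWAT 1) to 0.163 (without BAT 3). None of the 3 was called against eWAT, at -0.36, -0.97 and -0.56 (adjusted p = 0.556, 0.0903 and 0.182).

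The constitutive subunit was above its counterpart in each of the 9 libraries. The ratio of Psmb5 to Psmb8, per length, was 5.31 to 18.6 in BAT, 3.47 to 5.00 in iWAT and 6.49 to 10.5 in eWAT. That of Psmb6 to Psmb9 was 3.47 to 10.4, 1.48 to 2.13 and 3.34 to 4.75. The ratio of Psmb7 to Psmb10 was 5.73 to 11.3, 4.19 to 9.53 and 3.90 to 6.41. In each pair the lowest BAT ratio was that of BAT 2, and for the first 2 pairs the iWAT range lay under those of BAT and eWAT. Marker sums of macrophages, of T and NK cells and of B cells were at most 10.2, 1.02 and 2.39 FPKM, as given above. Whether such cells add to the levels of Psmb8, Psmb9 and Psmb10 was not tested.

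**Figure D5:**
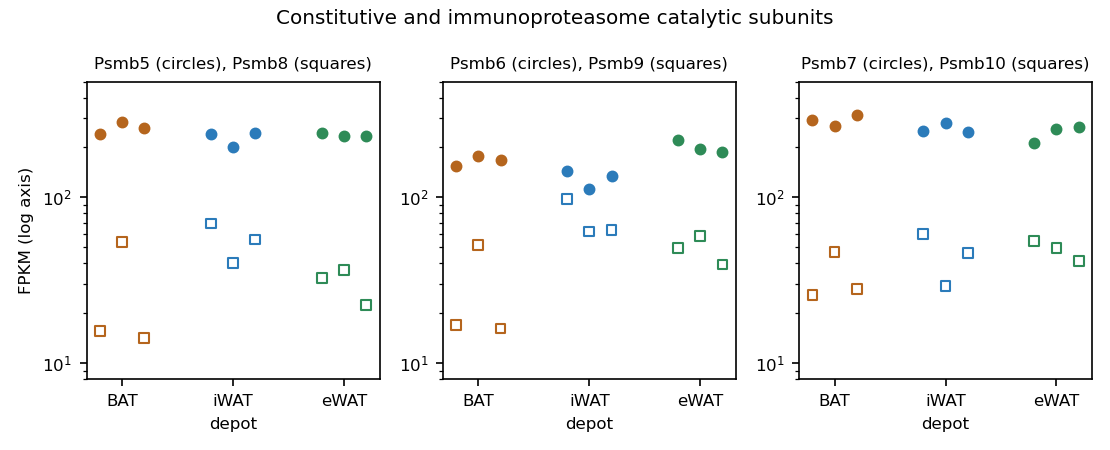
FPKM on a log axis of each catalytic subunit (circles) and its immunoproteasome counterpart (squares) in each library of the 3 depots. Circles lie above squares throughout, the gap is narrowest for Psmb6 and Psmb9 in iWAT, at a ratio of 1.48 in iWAT 1, and the middle BAT square, BAT 2, is the highest of its depot.

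Other genes of the pathway were read from lists. NRF1 itself, Nfe2l1, was at 87.5, 106 and 93.8 FPKM in BAT, 54.3, 67.9 and 55.8 in iWAT, and 69.9, 72.6 and 66.1 in eWAT. The 3 BAT libraries were above all 6 white ones, by 0.68 (SE 0.20, limma adjusted p = 0.0142) against iWAT and 0.45 (SE 0.20, limma adjusted p = 0.102) against eWAT. The call against iWAT was lost without BAT 2 (adjusted p = 0.067) and with median-ratio scaling (0.133) or quantile normalization (0.235), in a range of 0.00939 to 0.282. Of 13 tested genes that regulate NRF1 and NRF2, Nfe2l1 included, 5 were higher and 4 lower in BAT than in iWAT (median 0.39), beside 34.5% and 22.9% of all genes. Higher was Ngly1 (1.43), the deglycosylase that processes NRF1, and lower were Maff (-2.27), a small Maf partner, and the ubiquitin ligase genes Fbxw7 (-1.57) and Syvn1 (-1.40). Against eWAT none was higher (20.2% of all genes), and Maff (-1.30) and Syvn1 (-1.06) were lower (13.5% of all genes), Maff not without BAT 1, BAT 2, BAT 3, iWAT 3, eWAT 2 or eWAT 3 (adjusted p 0.0521 to 0.144). With depth as a covariate the differences from iWAT were -0.64 for Maff and -0.34 for Fbxw7, neither called.

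Of the activators and the inhibitor, BAT had 1 of 5 higher and 2 lower against iWAT, where 34.5% and 22.9% of all genes were so called. Psme1, an alpha chain of the PA28 cap, was higher (0.97), and Psme4, the PA200 cap, and the inhibitor Psmf1 were lower (-1.04 and -0.97). Of 5 tested assembly chaperones of the core, Psmg1 (0.99) and Psmg2 (0.78), which pair to build the alpha ring, were higher and none was lower, against the same shares. The call of Psme4 was lost without BAT 1, BAT 2, BAT 3, iWAT 2, iWAT 3 or eWAT 3 (adjusted p 0.051 to 0.151), that of Psmf1 without BAT 3 or iWAT 2 (adjusted p 0.0568 to 0.0663) and that of Psmg2 without BAT 1, BAT 2, BAT 3, iWAT 2 or iWAT 3 (adjusted p 0.0597 to 0.0946), and Psme4 turned to 0.43 with depth as a covariate. In that fit Psme1, Psmf1, Psmg1 and Psmg2 differed from iWAT by 0.50, -0.16, 0.47 and 0.21, none called. Quantile normalization lost the calls of Psme1 (limma adjusted p = 0.0554), Psmg1 (0.0671) and Psmg2 (0.14). Median-ratio scaling lost that of Psmg2 (limma adjusted p = 0.108). Among proteins that associate with the particle, the thioredoxin-like Txnl1 (0.90) and Ubxn1 (1.29) were higher, and the shuttle Ubqln2 (-1.13) and the small lid subunit Shfm1 (-0.70), which the naming rule leaves out, were lower, Shfm1 not without BAT 1, BAT 2, BAT 3, iWAT 2 or iWAT 3 (adjusted p 0.0574 to 0.109). With depth as a covariate Txnl1, Ubxn1, Ubqln2 and Shfm1 differed from iWAT by 1.19, 0.49, -0.53 and -0.21, none called. Against eWAT, no activator and no core chaperone was called (0 of 5 and 1 of 5 at an unadjusted p under 0.05), while Txnl1 (0.68) was higher and Ubqln2 (-1.20) and Ubqln1 (-0.66) were lower. These 3 calls were lost without BAT 1, BAT 2, BAT 3, eWAT 1 or eWAT 2 (adjusted p 0.0793 to 0.142) for Txnl1, BAT 2, BAT 3, eWAT 2 or eWAT 3 (adjusted p 0.0507 to 0.065) for Ubqln2 and BAT 1, BAT 2, BAT 3, eWAT 2 or eWAT 3 (adjusted p 0.055 to 0.0968) for Ubqln1. Between iWAT and eWAT no gene of these lists, the NRF list included, was called (limma), with 5 of 13 NRF regulators at an unadjusted p under 0.05.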

How the data were processed

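The authors deposited 1 table of FPKM values, made with TopHat and Cufflinks on build mm9 per the submitters' processing notes. Versions, annotation and strand settings are not given in the sources used here, and the header names no unit, so FPKM is read from the tools and the values. The table had 22996 lines for 22527 symbols, and no member was repeated. Groups followed the titles.

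The FPKM values were analysed as log2(FPKM + 1) with limma 3.58.1 in R 4.3.3 (empirical Bayes, intensity trend). All 9 libraries entered 1 fit with 6 residual degrees of freedom. The test covered the 10374 genes that reached 1 FPKM in 3 or more libraries. P-values were adjusted over all of these (Benjamini-Hochberg), and a gene was called when the adjusted p was under 0.05. Adjusted p-values in the text are from this limma fit or its alternatives. On simulated data for BAT against iWAT, with 10374 genes, 10.0% of log2 changes of 1 and 76.0% of changes of 2 were recovered. Far fewer genes were changed there than the 57.5% called here, which makes the adjustment stricter. The changed genes were drawn from all genes, and members varied less among replicates than genes in general. These shares are therefore not the recovery of such changes among the members. FPKM carries no read totals. Depth was estimated from low values of genes over 1000 bases long, of which 43.7% to 63.6% lay within 0.15 of a whole read.

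Replicates of the same number deviated together in iWAT and eWAT (r = 0.634, 0.534 and 0.165 across genes), a pairing seen in the values and not in the labels, but not in BAT and iWAT (-0.324, -0.225 and 0.121) or BAT and eWAT (-0.388, -0.202 and 0.103). Intronless copies were sought with minimap2 2.31. Promoters are from RefSeq (GRCm38.p6). The alternatives were a pseudocount of 0.1, other filters, quantile normalization, median-ratio scaling, fits of only the groups compared, the replicate block, a 2-fold minimum, summed symbols, libraries of like depth, and each library left out. A depth covariate, and the white depots alone with the block, were added after the data were seen.

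Members, gene lists and tests were chosen with earlier results of these data known. Named beyond the members were the immunoproteasome genes, Nfe2l1 and up to 4 called genes of each list with the largest change per comparison. Some genes of these lists are not reported here. Krt5, Plin1 and Ucp1 were named for the levels of other markers, after their values were seen.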

Additional observations from a re-analysis of the deposited data

How the results depend on the processing

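Between BAT and iWAT, 8 members were higher and 6 lower. Quantile normalization gave 5 and 12, a 2-fold minimum 3 and 4, and the depth covariate 0 and 0, with Psmd11 turning to 0.18 and Psmd14 to 0.29. Leaving out 1 library gave 6 to 12 higher and 4 to 7 lower. Median-ratio scaling moved the median of all genes from 0.23 to 0.04 and gave 7 and 6.

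Between BAT and eWAT, 1 was higher and 2 lower. No filter gave 0 and 2, a mean of at least 5 FPKM 2 and 2, quantile normalization 0 and 6, these groups alone 7 and 4, a 2-fold minimum 0 and 0, the deep libraries 9 and 2, and the depth covariate 1 and 1. Psmd8 and Psmc1 lost their calls with the depth covariate, so the member called higher in that fit was not Psmd8. With 1 library left out there were 0 to 6 higher and 1 to 6 lower.

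Between iWAT and eWAT, 0 were called. Leaving out iWAT 1 gave 1 higher and 10 lower, and leaving out any other single library 0 and 0, so that the ranges were 0 to 1 and 0 to 10.

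With the replicate number as a block, the counts were 8 and 6 for BAT against iWAT, 1 and 3 for BAT against eWAT (Psma5 added) and 0 and 0 between the white depots, which were also 0 and 0 when fitted alone with the block. The block changed no other call of a member. For the other moved counts the cause was not tested. Of the 6 white libraries, 5 had 2.92 to 4.65 M estimated reads, under each BAT library, and whether this depth limits the calls in the white depots was not tested.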

Other observations

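Of 5 tested genes of ubiquitin supply, 1 was higher and 3 were lower in BAT than in iWAT (limma), beside 34.5% and 22.9% of all genes. Against eWAT, 1 was higher and 2 were lower, beside 20.2% and 13.5%. The values of the 3 genes lower than in iWAT follow, which do not stand for the whole list. Rps27a, which encodes ubiquitin fused to a ribosomal protein, had a lower level in BAT than in the white depots, iWAT and eWAT, at log2 differences of -1.19 and -0.88 (limma adjusted p = 0.00522 and 0.0348). The polyubiquitin gene Ubb was lower, at -1.08 and -1.99 (adjusted p = 0.00983 and 0.000486), and Uba1, the enzyme that activates ubiquitin, was lower than in iWAT (-1.38, adjusted p = 0.0135) and not called against eWAT (-0.62, adjusted p = 0.242). Ribosomal protein genes have many near-identical copies in the genome, so the level of Rps27a is uncertain. The call of Rps27a against eWAT was lost without any 1 BAT library, eWAT 2 or eWAT 3 (adjusted p 0.0517 to 0.153), and that of Uba1 without BAT 2 (0.0512) or iWAT 2 (0.0503). With estimated depth as a covariate the differences of Rps27a, Ubb and Uba1 from iWAT were -0.48, -1.86 and 0.02, of which Ubb was called.

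Of 8 known NRF2 target genes outside the proteasome, 4 had a higher and 1 a lower level in BAT than in iWAT, beside 34.5% and 22.9% of all genes. G6pdx, which makes NADPH in the pentose phosphate pathway, was higher by 2.04, Srxn1, which repairs peroxiredoxins, by 1.71, and thioredoxin reductase Txnrd1 by 1.38, while the cystine carrier Slc7a11 was lower (-1.22). Srxn1 was at 33.5, 27.8 and 25.99 FPKM in BAT 1, 2 and 3 and at 5.68, 2.88 and 28.8 in iWAT 1, 2 and 3, so that iWAT 3 lay within the BAT range. Without iWAT 3 its difference was 2.56 (limma adjusted p = 0.000598), and the call was lost without any 1 BAT library, iWAT 1 or iWAT 2 (adjusted p 0.0621 to 0.116), at 1.09 without iWAT 2. The call of Slc7a11 was lost without BAT 2, BAT 3, iWAT 2 or iWAT 3 (adjusted p 0.0525 to 0.0632), and its difference was 0.05 with depth as a covariate. Against eWAT, Srxn1 (2.26), G6pdx (1.23) and Txnrd1 (1.17) were higher and the quinone reductase Nqo1 was lower (-0.86), at a mean of 0.475 FPKM in BAT, beside 20.2% and 13.5% of all genes. The call of Nqo1 was lost without BAT 1, BAT 3, eWAT 2 or eWAT 3 (adjusted p 0.0527 to 0.111). The BAT libraries are shared by both comparisons. Between iWAT and eWAT none of these 8 was called (limma), and 2 had an unadjusted p under 0.05.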
